A study of Mus musculus with 12 samples.

Results

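Peroxiredoxins, glutathione peroxidases and catalase remove hydrogen peroxide and organic peroxides, and 10 of their genes were followed here by symbol in tumor-associated macrophages (TAMs): Prdx1 to Prdx6, Gpx1, Gpx3, Gpx4 and Cat. All 10 were among the 55401 genes listed in the deposited tables, each was matched to 1 row, and all passed the filter on low counts in both comparisons. In AMPK-KO TAMs the transcripts of Prdx1, Cat, Gpx3, Gpx4 and Prdx3 fell and that of Prdx5 rose. In late-stage TAMs those of Prdx6, Prdx1 and Gpx1 fell and that of Prdx4 rose. Prdx1, the peroxiredoxin transcript with the highest mean level per length in every group, was the only member called in both comparisons.

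As background, a peroxiredoxin reduces a peroxide with a cysteine of its own, which thioredoxin or glutathione then restores. The glutathione peroxidases Gpx1, Gpx3 and Gpx4 carry a selenocysteine and draw on glutathione, and catalase splits hydrogen peroxide in peroxisomes without a cofactor to be recycled. Both thiol systems are kept reduced by NADPH, and in macrophages they act beside an oxidative burst that the cells themselves produce.

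Bulk RNA-seq covered 12 samples of TAMs sorted from subcutaneous B16-F10 melanoma tumors, in 2 count tables. The first table compared 3 samples from AMPKfl/fl mice (WT) with 3 from AMPKfl/flLyz2cre/cre mice (AMPK-KO), which the study's methods place at day 15 after implantation. The second compared 3 early-stage samples (day 8) with 3 late-stage samples (day 15), both from mice whose genotype is labelled WT. The methods give female mice on a C57BL/6 background, 5 weeks old, with the Lyz2 promoter driving Cre in myeloid cells, so that WT and AMPK-KO share the floxed allele. The labels write the Cre locus of AMPK-KO replicates 2 and 3 as Lyz3 and Lyz4. They do not say whether replicates came from separate animals, so p-values here measure the spread between these samples, which may be technical. In bulk RNA, fewer cells of a type and less RNA per cell cannot be told apart.

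Library totals were 71019494 to 81671067 counts in WT, 73669620 to 80911139 in AMPK-KO, 77155066 to 84470374 in early-stage and 79623704 to 82499295 in late-stage samples. Prkaa1, which encodes the AMPKα1 subunit, fell from 65.0 ± 3.34 CPM in WT to 42.9 ± 3.53 CPM in AMPK-KO (adjusted p = 2.3e-04). Lyz2, a lysozyme of macrophages and the locus of the Cre, was at 10.7 ± 2.46 CPM in WT and 11.2 ± 2.16 CPM in AMPK-KO, against 2790 ± 279 CPM in early-stage and 1107 ± 19.1 CPM in late-stage samples, so that WT stood with AMPK-KO for this gene and not with the samples of the other table. The labels give WT no Cre, and whether these samples carry it was not tested, so that AMPK-KO against WT is a comparison of the groups as labelled. The summed counts of 4 Y-linked genes were 9229 to 11360 in WT, 11299 to 12183 in AMPK-KO, 3435 to 4035 in early-stage and 0 to 4 in late-stage samples, so that Y-linked transcripts went with the stage, and a difference in the sex of the cells and one of stage cannot be told apart. These counts in 3 of the 4 groups go against the female mice that the methods name. All 10 macrophage markers examined passed the filter, with summed levels of 9721 to 13960 CPM over the 12 samples.

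Levels are given as CPM, counts per 1000000 counts of the library after TMM scaling, as mean ± SD over the 3 samples of a group. Fold changes are log2 values with their standard error (SE) from edgeR's quasi-likelihood test, a change was called at an adjusted p under 0.05 (Benjamini-Hochberg over all genes tested in that table), and "rose" and "fell" are used for called changes alone. Under this rule 21.1% of the 17532 genes tested were called in AMPK-KO against WT, 11.3% higher and 9.78% lower. In late-stage against early-stage, 9.18% of 17630 genes were called, 4.31% higher and 4.88% lower. Over all genes tested, the medians of the log2 fold changes were −0.0037 and 0.0027, respectively.

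**Figure D1:**
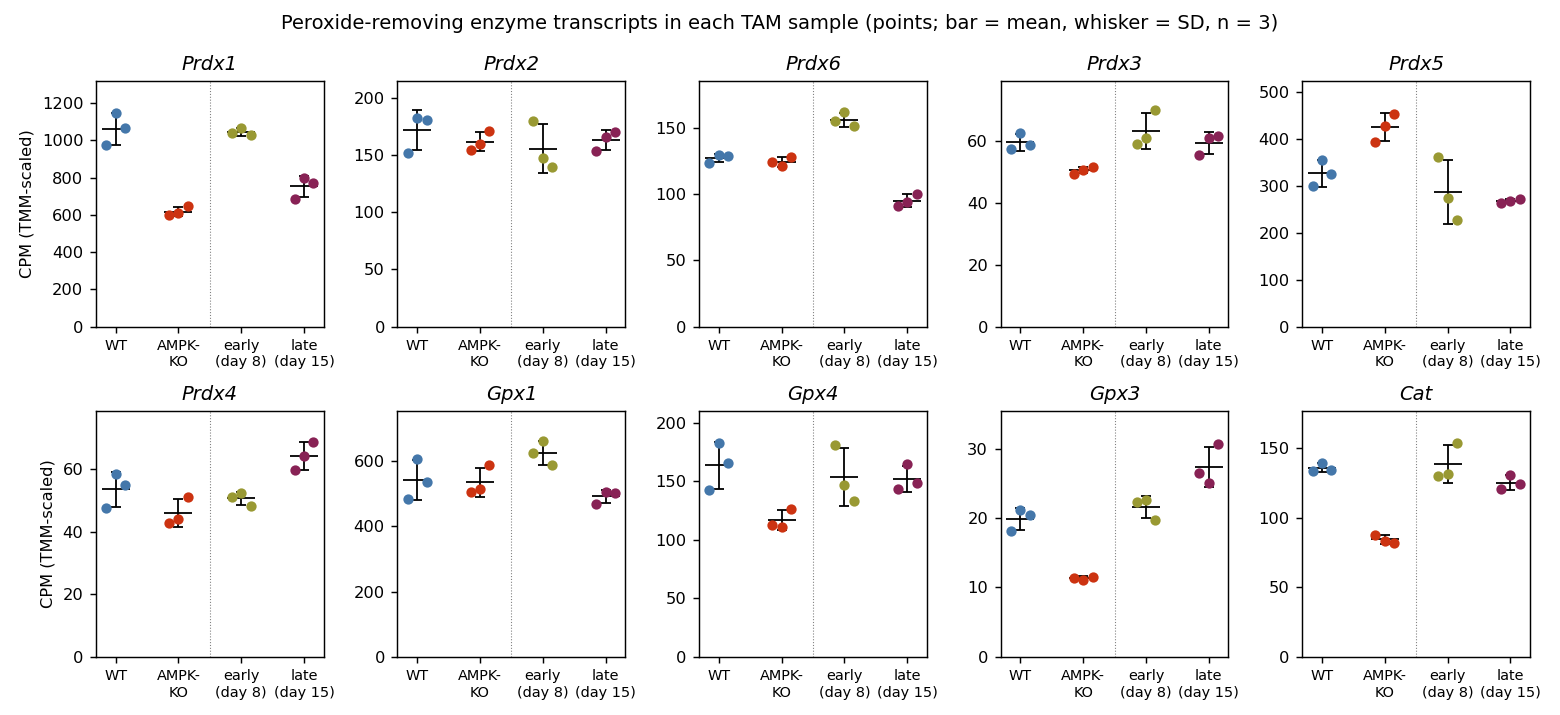
CPM of each of the 10 genes (y axis, from 0) in the 4 groups (x axis), with 1 point per sample, a bar at the mean and whiskers of 1 SD. The dotted line separates the tables. The AMPK-KO points of Prdx1, Cat, Gpx3, Gpx4 and Prdx3 lie below all WT points and those of Prdx5 lie above them.

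The cytosolic peroxiredoxins were taken first. Prdx1, the major peroxiredoxin of the cytosol and also a known target of the stress factor NRF2, is encoded on the plus strand of chromosome 4 (chr4:116685544-116700822, GRCm38). Its promoter is shown because, of the 9 members with a promoter window at hand, it alone held the core of the antioxidant response element. That core is TGACNNNGC on either strand, searched from 250 bases before to 50 bases after the start site. No window was at hand for Prdx6, so its promoter was not searched. The stretch below, from RefSeq on GRCm38.p6 (chr4:116685349-116685543, plus strand), ends where the annotated gene begins, and its capitals mark that core together with the AP-1 element TGACTCA, searched on both strands.

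Prdx1 promoter: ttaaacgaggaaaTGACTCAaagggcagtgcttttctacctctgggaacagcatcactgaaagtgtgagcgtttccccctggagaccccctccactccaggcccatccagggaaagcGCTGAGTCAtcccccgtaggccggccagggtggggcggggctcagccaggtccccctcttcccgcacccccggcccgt

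The core lies 133 bases before the RefSeq start site and overlaps an AP-1 match at 131 bases, while a second AP-1 match lies 237 bases before the start. Of all 32851 windows, 12.4% held the core and 5.2% the AP-1 element. A match of letters is a description of the sequence and does not show that a factor was bound.

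Prdx1 was at 976, 1147 and 1069 CPM in WT replicates 1, 2 and 3 and at 597, 608 and 646 CPM in the AMPK-KO replicates. Every AMPK-KO sample lay below every WT sample, by more than the spread within either group. The mean was 1064 ± 85.9 CPM in WT and 617 ± 25.6 CPM in AMPK-KO, and Prdx1 fell by 0.79 on the log2 scale (SE 0.06, adjusted p = 9.8e-06), or −42% as fitted. In the stage comparison, Prdx1 was at 1038, 1069 and 1028 CPM in early-stage and at 687, 798 and 773 CPM in late-stage samples, again without overlap. Its log2 fold change was −0.47 (SE 0.07, adjusted p = 0.0038), or −28%. The knockout effect minus the stage effect, tested over all 12 samples, was −0.30 (SE 0.10) on the log2 scale and was not called (adjusted p = 0.0536).

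Prdx2, the cytosolic peroxiredoxin best known from red blood cells, is encoded at chr8:84969587-84974834 (plus strand). It was at 172 ± 17.1 CPM in WT and 162 ± 8.19 CPM in AMPK-KO, where the samples overlapped and the log2 fold change was −0.09 (SE 0.07, adjusted p = 0.460). In early- and late-stage samples it was at 155 ± 21.5 and 163 ± 8.63 CPM (log2 fold change 0.07, SE 0.10, adjusted p = 0.720). Early-stage replicate 1, at 180 CPM, lay above all late-stage samples, whereas the other early-stage replicates, at 147 and 139 CPM, lay below them.

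Prdx6, a peroxiredoxin with 1 catalytic cysteine that also reduces phospholipid peroxides and has phospholipase activity, is encoded at chr1:161240112-161251219 (minus strand). It was at 155, 162 and 151 CPM in early-stage and at 90.8, 94.3 and 100.1 CPM in late-stage samples. The gap between the stages was wider than the spread within either. Its log2 fold change of −0.72 (SE 0.07, adjusted p = 3.3e-04), or −39.1%, had the smallest adjusted p of the 10 genes in this comparison. In contrast, Prdx6 was at 127 ± 3.14 CPM in WT and 124 ± 3.69 CPM in AMPK-KO, where the samples overlapped and the log2 fold change was −0.03 (SE 0.05, adjusted p = 0.693). The difference of the 2 effects was 0.69 (SE 0.08) on the log2 scale and was called (adjusted p = 3.8e-05).

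Among the peroxiredoxins of organelles, Prdx3 resides in mitochondria and is encoded at chr19:60864051-60874556 (minus strand). WT samples were at 57.3, 62.4 and 58.6 CPM and AMPK-KO samples at 49.4, 50.6 and 51.5 CPM. The groups did not overlap, although the step between them was small. Its log2 fold change was −0.24 (SE 0.06, adjusted p = 0.0160), or −15%. The call was lost when WT replicate 2 or 3 or AMPK-KO replicate 1 or 2 was left out, with adjusted p of 0.0507 to 0.0685. In the stage comparison Prdx3 was at 63.2 ± 5.79 and 59.3 ± 3.50 CPM (log2 fold change −0.09, SE 0.09, adjusted p = 0.580).

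Prdx5, which is found in mitochondria, peroxisomes and the cytosol, lies on the same chromosome at chr19:6906697-6910106 (minus strand). It was at 300, 356 and 325 CPM in WT and at 394, 428 and 454 CPM in AMPK-KO, every AMPK-KO sample above every WT sample. Prdx5 was the 1 member that rose in AMPK-KO, by 0.38 on the log2 scale (SE 0.07, adjusted p = 0.0036), or 30.1%. The early-stage samples were spread widely, at 362, 273 and 227 CPM, and enclosed the late-stage samples at 265, 268 and 272 CPM. Accordingly, no stage change was called (log2 fold change −0.10, SE 0.14, adjusted p = 0.721), and the sign turned to 0.10 without early-stage replicate 1. The difference of effects, 0.49 (SE 0.17), was not called (adjusted p = 0.0864).

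Prdx4, the peroxiredoxin of the endoplasmic reticulum that passes oxidation on to folding proteins, is X-linked (chrX:155323918-155340754, minus strand). It was at 51.2, 52.4 and 48.2 CPM in early-stage and at 59.7, 64.2 and 68.7 CPM in late-stage samples. All late-stage samples were higher, and Prdx4 was the 1 member that rose with stage (log2 fold change 0.34, SE 0.08, adjusted p = 0.0297, or 26.8%). Without early-stage replicate 2 or late-stage replicate 2 or 3 the adjusted p was 0.0935, 0.124 and 0.149, respectively, and the call was lost, as it was with no filter on low counts (0.0626) and with the replicate number as a block (0.0572). In AMPK-KO against WT its samples overlapped, at 53.5 ± 5.60 CPM in WT and 46.0 ± 4.38 CPM in AMPK-KO (log2 fold change −0.22, SE 0.09, adjusted p = 0.123). Without WT replicate 1 this change was called at −0.30 (adjusted p = 0.0278). The 2 effects differed by −0.55 (SE 0.13, adjusted p = 0.0088).

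Of the glutathione peroxidases, Gpx1 is the abundant cytosolic and mitochondrial enzyme for hydrogen peroxide, encoded at chr9:108338903-108340343 (plus strand). It was at 624, 663 and 589 CPM in early-stage and at 469, 506 and 502 CPM in late-stage samples. The stages did not overlap, and Gpx1 fell by 0.35 on the log2 scale (SE 0.07, adjusted p = 0.0165), or −21.3% as fitted. Leaving out early-stage replicate 2 or any late-stage replicate ended this call, with adjusted p of 0.0808, 0.0822, 0.0747 and 0.0754. In WT and AMPK-KO the samples overlapped widely, at 542 ± 61.6 and 536 ± 44.6 CPM (log2 fold change −0.02, SE 0.08, adjusted p = 0.925). The difference of effects, 0.34 (SE 0.12), was not called (adjusted p = 0.0698).

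Gpx4 reduces lipid hydroperoxides within membranes and is the enzyme whose loss sets off ferroptosis (chr10:80047166-80056439, plus strand). WT samples were at 142, 182 and 165 CPM and AMPK-KO samples at 113, 110.5 and 126 CPM. The AMPK-KO samples lay below all WT samples, with WT replicate 1 the nearest to them. Gpx4 fell by 0.49 on the log2 scale (SE 0.09, adjusted p = 0.0029), or −28.7%. In the stage comparison it was at 181, 147 and 133 CPM in early-stage and at 143, 165 and 149 CPM in late-stage samples, so that the late-stage samples lay inside the early-stage range (log2 fold change −0.02, SE 0.11, adjusted p = 0.955). The difference of effects was −0.46 (SE 0.15, adjusted p = 0.0670).

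A transcribed processed pseudogene, Gpx4-ps2 (chr10:45875291-45876086), shares sequence with Gpx4, and the sources do not state how reads mapping to both were counted. It was at 25.3 ± 1.53 CPM in WT and 19.6 ± 2.02 CPM in AMPK-KO (log2 fold change −0.37, adjusted p = 0.0198). With the counts of both genes summed, which was chosen after their values were seen, the log2 fold change of Gpx4 was −0.47 in AMPK-KO (adjusted p = 0.0025) and −0.04 with stage (adjusted p = 0.857).

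Gpx3, the secreted glutathione peroxidase of plasma, was the least abundant member (chr11:54902453-54910377, plus strand). It was at 18.1, 21.2 and 20.5 CPM in WT and at 11.4, 11.0 and 11.6 CPM in AMPK-KO. The AMPK-KO samples were tightly grouped below all WT samples. The log2 fold change of −0.81 (SE 0.09, adjusted p = 1.6e-04), or −43.1%, was the largest in size among the 10 genes. With stage it went the other way, from 22.4, 22.6 and 19.8 CPM in early-stage to 26.6, 25.0 and 30.7 CPM in late-stage samples. These groups did not overlap either, yet the log2 fold change of 0.35 (SE 0.11) was not called by edgeR (adjusted p = 0.0856) and was called by DESeq2 (adjusted p = 0.0389). Gpx3 had the largest difference of effects, −1.15 (SE 0.14, adjusted p = 5.9e-05).

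Cat, the peroxisomal catalase, is encoded on the minus strand of chromosome 2 (chr2:103453849-103485160, GRCm38). Its promoter is shown because its window held 4 matches to the CCAAT box on either strand, at 230, 85, 55 and 13 bases before the RefSeq start site, marked by capitals below. The stretch is from RefSeq on GRCm38.p6 (chr2:103485161-103485403, minus strand) and is written in the direction of the gene.

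Cat promoter: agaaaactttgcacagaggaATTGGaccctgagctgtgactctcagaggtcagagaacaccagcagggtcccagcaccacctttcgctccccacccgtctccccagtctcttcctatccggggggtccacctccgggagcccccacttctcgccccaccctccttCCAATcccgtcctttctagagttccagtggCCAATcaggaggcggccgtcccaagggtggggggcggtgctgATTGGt

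Of all windows, 37.4% held at least 1 CCAAT box and 3.37% held 3 or more. The AP-1 element and the antioxidant response core were not matched in this window.

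Cat was at 134, 140 and 135 CPM in WT and at 87.7, 83.3 and 82.0 CPM in AMPK-KO. Both groups were narrow and far apart, and of the 10 genes Cat had the smallest adjusted p in this comparison. The means were 136 ± 3.17 and 84.4 ± 2.99 CPM, and Cat fell by 0.69 on the log2 scale (SE 0.05, adjusted p = 7.8e-06), or −38%. With stage, Cat was at 139 ± 13.4 CPM in early-stage and 125 ± 5.24 CPM in late-stage samples, which overlapped (log2 fold change −0.15, SE 0.08, adjusted p = 0.330). The 2 effects differed by −0.54 (SE 0.10, adjusted p = 0.0018).

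**Figure D2:**
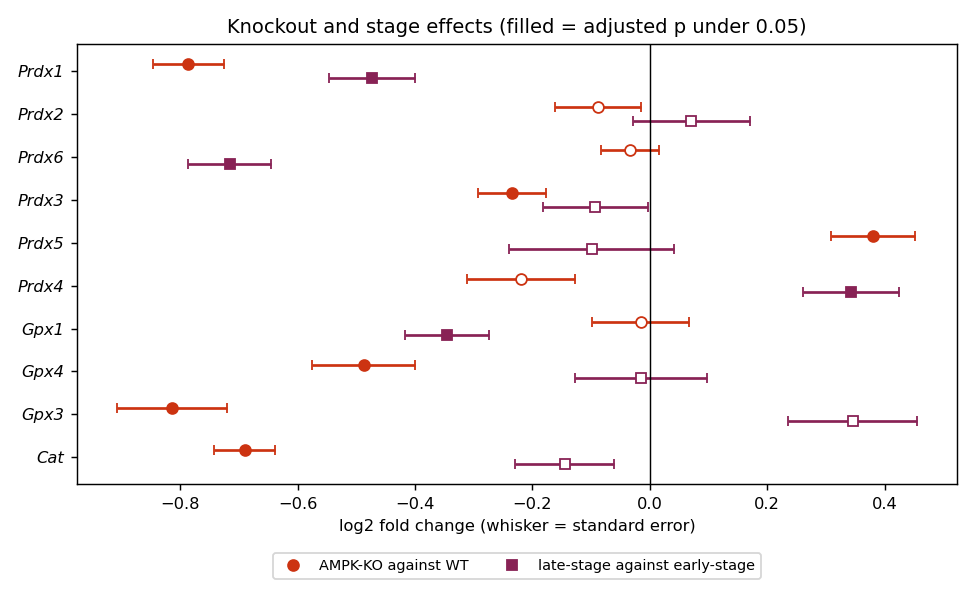
Log2 fold change (x axis, whiskers of 1 standard error) of each gene (y axis) in AMPK-KO against WT (circles) and late-stage against early-stage (squares), filled where the adjusted p was under 0.05. Prdx1 is to the left of 0 and filled in both. Cat, Gpx3, Gpx4 and Prdx3, to the left of 0, and Prdx5, to the right, are filled in the knockout alone. Prdx6 and Gpx1, to the left, and Prdx4, to the right, are filled with stage alone.

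In all, 6 of the 10 genes were called in AMPK-KO against WT, 1 higher and 5 lower, beside 21.1% of all genes tested, and their median log2 fold change was −0.23. The groups did not overlap for the same 6 genes, against 37.2% of all genes. In late-stage against early-stage 4 were called, 1 higher and 3 lower, beside 9.18% of all genes, with a median of −0.10. Without early-stage replicate 2, late-stage replicate 2 or late-stage replicate 3, the called members were 2, Prdx1 and Prdx6, both lower, and the genes called in all were 680, 653 and 682 in place of 1619. Here the groups did not overlap for 5 genes, the 4 called and Gpx3, against 31.2% of all genes. The fitted change of every member was smaller than 1 log2 unit with both edgeR and DESeq2, so none was differentially expressed by the joint criterion used here, an adjusted p under 0.05 with an absolute log2 fold change above 1, which 3.34% of all genes met in the knockout and 1.87% with stage. The knockout and stage effects differed for 4 members, namely Gpx3, Prdx6, Cat and Prdx4, beside 12.6% of the 19073 genes tested over the 12 samples. Of these, Gpx3, Prdx4 and Cat had the more negative effect in AMPK-KO and Prdx6 had it with stage. For the other 6 the difference was not called, so that a change called in 1 comparison and not in the other is not shown to be particular to it.

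In WT and AMPK-KO the samples of a group deviated together in these genes, Cat apart. Pairs of members without Cat had within-group r of 0.61 to 0.98, and pairs with Cat −0.13 to 0.38. In the stage samples r ranged from −0.76 (Prdx5 and Cat) to 0.96 (Prdx4 and Prdx6). In WT, replicate 1 had the lowest and replicate 2 the highest level of all 10 genes. In AMPK-KO, replicate 3 had the highest level of 9 genes and the lowest of Cat. Late-stage replicate 1 had the lowest level of 9 genes, all but Gpx3, while early-stage replicate 1 had the highest level of Gpx4, Prdx2 and Prdx5 and the lowest of Prdx3 and Cat. The 10 genes within a library are therefore not independent readings of its group.

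Between genes, levels were compared as CPM per kb of exon. The length was that of a gene's annotated exons merged, 1441 bases for Gpx1 and 3043 for Prdx1. Which transcripts were present was not examined, so the order of genes and their shares depend on this choice. By CPM alone Prdx1 was above Gpx1 in WT, at 1064 ± 85.9 and 542 ± 61.6 CPM. In AMPK-KO Prdx1 was above Prdx5, at 617 ± 25.6 and 425 ± 30.3 CPM. Per kb in WT, Gpx1 (376 ± 42.8 CPM per kb) and Prdx1 (350 ± 28.2 CPM per kb) came first, and their samples overlapped. Prdx5 followed at 153 ± 13.3 CPM per kb and Gpx4 at 94.8 ± 11.6 CPM per kb, each apart from its neighbours in every sample. Prdx2 (56.4 ± 5.60 CPM per kb) and Cat (52.1 ± 1.21 CPM per kb) overlapped, as did Prdx6 (26.5 ± 0.654 CPM per kb) and Prdx4 (25.4 ± 2.66 CPM per kb), with Prdx3 between these pairs at 40.2 ± 1.78 CPM per kb. Gpx3 was last at 11.0 ± 0.898 CPM per kb.

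In AMPK-KO, Gpx1, Prdx1 and Prdx5 kept this order by their means, but the distances between them changed. Gpx1 was at 372 ± 31.0 CPM per kb, whereas Prdx1, at 203 ± 8.42 CPM per kb, met Prdx5 at 199 ± 14.2 CPM per kb, so that their samples overlapped. Prdx3 (34.2 ± 0.705 CPM per kb) and Cat (32.3 ± 1.14 CPM per kb) overlapped as well, and Prdx6 (25.9 ± 0.767 CPM per kb) was now above Prdx4 (21.8 ± 2.08 CPM per kb) in every sample. In early-stage samples Gpx1 (434 ± 25.6 CPM per kb) was above Prdx1 (343 ± 6.91 CPM per kb), and Prdx6 (32.5 ± 1.10 CPM per kb) above Prdx4 (24.0 ± 1.02 CPM per kb), each without overlap. In late-stage samples Gpx1 (342 ± 13.9 CPM per kb) was again above Prdx1 (247 ± 19.2 CPM per kb), whereas Prdx4 (30.5 ± 2.14 CPM per kb) had passed Prdx6 (19.8 ± 0.979 CPM per kb), which still lay above Gpx3 (15.1 ± 1.61 CPM per kb). Prdx5 was at 134 ± 32.1 and 125 ± 1.77 CPM per kb in early- and late-stage samples, Gpx4 at 89.2 ± 14.3 and 88.2 ± 6.48, and Prdx3 at 42.8 ± 3.92 and 40.1 ± 2.37. Cat, at 53.1 ± 5.14 CPM per kb, and Prdx2, at 50.9 ± 7.04 CPM per kb, overlapped in early-stage samples, where Prdx2 also overlapped Prdx3. In late-stage samples Prdx2 (53.5 ± 2.83 CPM per kb) was narrowly above Cat (48.0 ± 2.01 CPM per kb), and Gpx3 was last in both groups, at 11.9 ± 0.873 CPM per kb in early-stage samples.

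Of the summed CPM per kb of the 10 genes, Prdx1 made up 29.5% ± 0.306 in WT and 20.0% ± 0.386 in AMPK-KO, and Prdx5 12.9% ± 0.102 and 19.6% ± 0.574. In early- and late-stage samples the share of Prdx1 was 28.3% ± 1.26 and 24.5% ± 0.746. The share of Gpx1 was 31.7% ± 0.756 in WT, 36.6% ± 0.819 in AMPK-KO, 35.7% ± 1.52 in early-stage and 33.8% ± 0.261 in late-stage samples. A share depends on the levels of the other genes too. That of Gpx1 was higher in AMPK-KO although its level was not called changed (log2 fold change −0.02, edgeR adjusted p = 0.925). Together the 10 genes took 0.266% ± 0.0186 of all counts in WT, 0.217% ± 0.0116 in AMPK-KO, 0.267% ± 0.0119 in early-stage and 0.222% ± 0.0096 in late-stage samples.

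**Figure D3:**
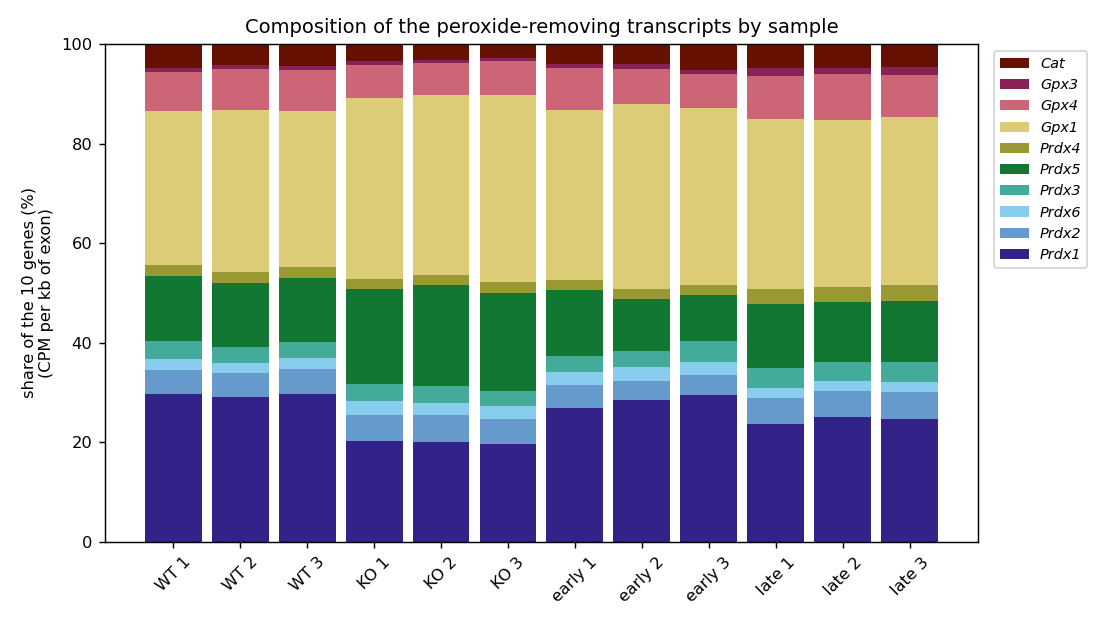
Share of each gene in the summed CPM per kb of exon of the 10 genes (y axis, %) in each of the 12 samples (x axis), stacked to 100%. Prdx1 falls from 29.5% in WT to 20.0% in AMPK-KO while Prdx5 goes from 12.9% to 19.6%.

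The remaining glutathione peroxidase genes were scarce. Gpx5 and Gpx6 had no count in any sample, which allows up to 3 counts per library, and Gpx2 had at most 12 counts in a library and was not tested. Gpx7 and Gpx8, enzymes of the endoplasmic reticulum, were not called in AMPK-KO (log2 fold change −0.23 and −0.52, adjusted p = 0.648 and 0.446). With stage, Gpx7 rose from 1.60 ± 0.309 to 2.97 ± 0.359 CPM (log2 fold change 0.89, SE 0.23, adjusted p = 0.0433). Gpx8 fell from 3.77 ± 1.14 to 1.76 ± 0.490 CPM (log2 fold change −1.10, SE 0.29, adjusted p = 0.0428).

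The systems that serve these enzymes were examined next. Of 12 thioredoxin system genes, 2 rose and 2 fell in AMPK-KO, and 3 fell with stage. Srxn1, the sulfiredoxin that restores overoxidized peroxiredoxins, was at 123, 119 and 124 CPM in WT and at 64.6, 63.4 and 64.6 CPM in AMPK-KO, groups that lay far apart. It fell by 0.92 on the log2 scale (SE 0.05, adjusted p = 9.6e-07). With stage Srxn1 fell from 120 ± 3.81 to 83.9 ± 3.48 CPM (log2 fold change −0.52, SE 0.07, adjusted p = 0.0019), the smallest adjusted p of the list in both comparisons. Glrx, a glutaredoxin, rose in AMPK-KO from 208 ± 5.22 to 249 ± 5.60 CPM (log2 fold change 0.26, SE 0.05, adjusted p = 0.0024), and fell with stage from 204 ± 18.1 to 147 ± 7.04 CPM (log2 fold change −0.47, SE 0.08, adjusted p = 0.0074). The median log2 fold change of the list was −0.10 in AMPK-KO and −0.20 with stage.

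Of 12 genes for glutathione synthesis and recycling, 2 rose and 6 fell in AMPK-KO (median log2 fold change −0.22), and 3 fell with stage (median −0.26). Gclm, the regulatory subunit of the enzyme that commits cysteine to glutathione, was at 101, 110.0 and 115 CPM in WT and at 46.8, 51.2 and 43.7 CPM in AMPK-KO. All AMPK-KO samples lay far below the lowest WT sample, and Gclm fell by 1.20 on the log2 scale (SE 0.07, adjusted p = 2.1e-06). Ggct, which acts in the breakdown of γ-glutamyl peptides, rose from 6.81 ± 0.601 to 10.6 ± 0.772 CPM (log2 fold change 0.64, SE 0.12, adjusted p = 0.0032). Slc7a11, the cystine importer, fell with stage from 22.6 ± 3.64 to 8.56 ± 1.05 CPM (log2 fold change −1.40, SE 0.15, adjusted p = 4.6e-04).

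Of 16 genes that supply NADPH, 1 rose and 7 fell in AMPK-KO (median log2 fold change −0.03). Idh1, the cytosolic isocitrate dehydrogenase, fell from 112 ± 5.18 to 80.9 ± 1.58 CPM (log2 fold change −0.47, SE 0.05, adjusted p = 1.4e-04), and Nadk, the kinase that makes NADP, rose from 191 ± 0.976 to 217 ± 5.31 CPM (log2 fold change 0.18, SE 0.04, adjusted p = 0.0153). With stage 1 rose and 2 fell (median 0.07). Idh1 was again lower (log2 fold change −0.38, SE 0.08, adjusted p = 0.0183), and Mthfd1, an enzyme of folate metabolism, was higher (log2 fold change 0.37, SE 0.08, adjusted p = 0.0180).

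Of 10 genes for selenoprotein synthesis, on which Gpx1, Gpx3 and Gpx4 depend, 4 fell in AMPK-KO (median log2 fold change −0.13), led by Scly, which frees selenium from selenocysteine (59.7 ± 1.29 to 45.4 ± 3.18 CPM, log2 fold change −0.39, SE 0.07, adjusted p = 0.0017). With stage edgeR called 0 of these, and 1 had an unadjusted p under 0.05 (median 0.07). Of 15 peroxisome assembly genes, which serve the organelle of Cat, 1 fell in AMPK-KO, the import factor Pex13 (log2 fold change −0.37, SE 0.09, adjusted p = 0.0108, list median −0.01). With stage edgeR called 0, and 1 had an unadjusted p under 0.05 (median 0.00). Of the 3 superoxide dismutases, which produce hydrogen peroxide from superoxide, 2 rose in AMPK-KO (median 0.30) and 1 fell with stage (median −0.02). Mitochondrial Sod2 was at 127 ± 7.54 CPM in WT and 156 ± 4.38 CPM in AMPK-KO (log2 fold change 0.30, SE 0.06, adjusted p = 0.0035), and at 138 ± 7.76 CPM in early-stage and 90.7 ± 2.31 CPM in late-stage samples (log2 fold change −0.60, SE 0.07, adjusted p = 8.5e-04).

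Of 12 sensors and transcription factors of oxidative stress, 2 rose and 2 fell in AMPK-KO (median log2 fold change 0.05). Bach1, a repressor at antioxidant response elements, rose (log2 fold change 0.28, SE 0.06, adjusted p = 0.0112), and Mafg, a small partner protein at the same elements, fell (log2 fold change −0.47, SE 0.05, adjusted p = 1.0e-04). With stage edgeR called 0 of the 12, and 4 had an unadjusted p under 0.05 (median 0.06).

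**Figure D4:**
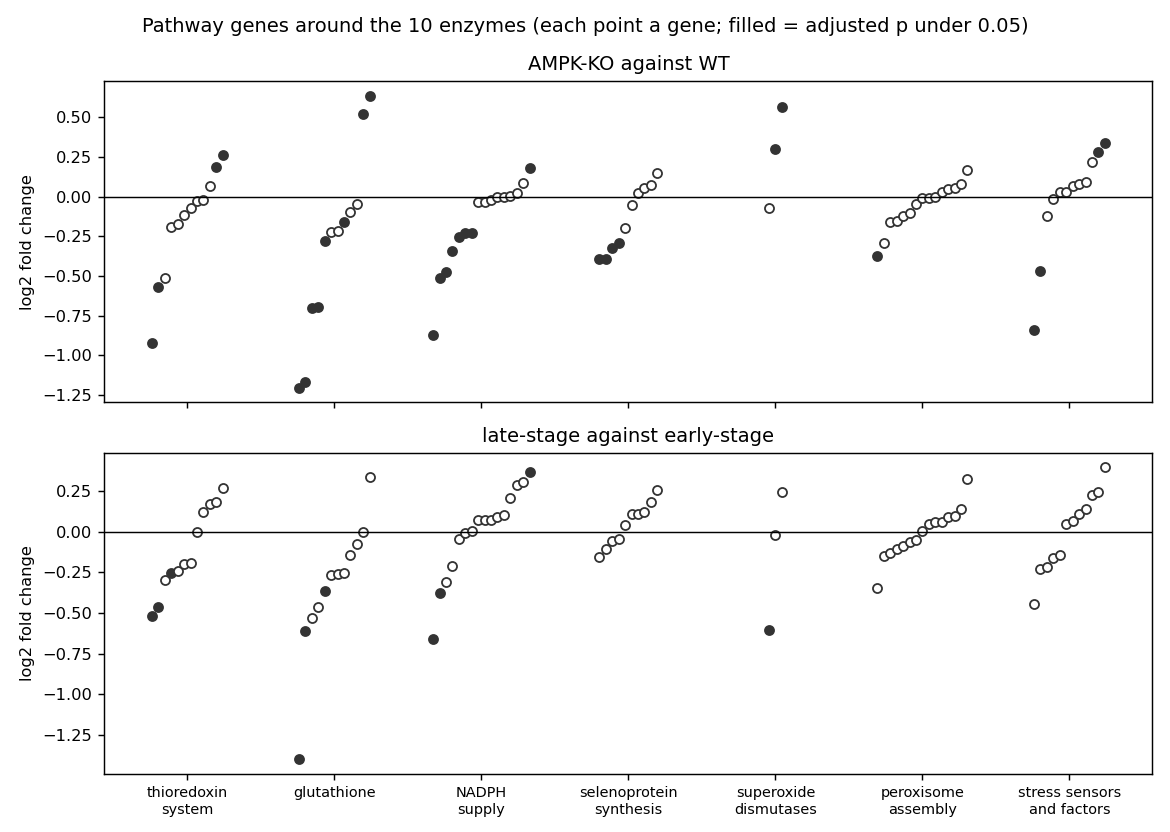
Log2 fold change (y axis) of each tested gene of the 7 pathway lists (x axis) in AMPK-KO against WT (top) and late-stage against early-stage (bottom), each point a gene and filled where the adjusted p was under 0.05. The lowest filled points of the top panel, at and below −1, are glutathione genes, among them Gclm at −1.20.

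Markers of other cells moved with both comparisons, although the study's methods lyse red blood cells and define TAMs as CD45+, CD11b+ and F4/80+ cells without Ly6C or Ly6G, a gate meant to leave out tumor, fibroblast, endothelial, erythroid, T, B and neutrophil cells. Of 8 B16 melanoma markers, 7 fell in AMPK-KO (summed level 1037 to 1040 CPM in WT and 703 to 744 CPM in AMPK-KO, median log2 fold change −0.49), and 6 fell with stage (1732 to 1886 and 795 to 1255 CPM, median −0.68). Erythroid markers summed to 22.7 to 25.2 CPM in WT and 7.67 to 9.24 CPM in AMPK-KO, where 4 of 5 tested fell, and to 13.9 to 18.6 and 12.1 to 12.6 CPM in early- and late-stage samples, where 1 of 6 fell. Ahsp and Slc4a1 were at 0 counts in both tables and Epb42 in the first. Of the macrophage markers, 2 rose and 1 fell in AMPK-KO (12565 to 13960 and 12727 to 13095 CPM), and 1 rose with stage (9721 to 12147 and 12747 to 12837 CPM).

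In AMPK-KO, 7 of 8 T cell (92.2 to 108 and 176 to 184 CPM), 7 of 7 NK cell (33.3 to 37.2 and 81.7 to 84.9 CPM), 7 of 7 dendritic cell (88.2 to 98.9 and 135 to 143 CPM) and 6 of 6 fibroblast markers rose (570.0 to 617 and 741 to 822 CPM). Of 6 B cell markers 1 rose and 4 fell, with a median log2 fold change of −4.06. Their summed level, 61.7 to 68.0 CPM in WT and 53.4 to 54.6 CPM in AMPK-KO, includes Cd79b, the marker that rose. Of 9 neutrophil markers listed, 4 were tested and 2 rose (1.62 to 2.27 and 5.14 to 6.19 CPM over all 9, with Ly6g and Ngp at 0 counts). Of 6 endothelial markers listed, 5 were tested, and 2 rose and 1 fell (56.6 to 68.8 and 125 to 128 CPM over all 6). With stage, 2 of 8 T cell (155 to 167 and 186 to 221 CPM) and 3 of 6 B cell markers rose (78.7 to 92.5 and 99.9 to 132 CPM). Markers fell for 5 of 7 in NK cells (89.2 to 103 and 39.7 to 54.2 CPM) and for 2 of 3 tested in neutrophils (2.78 to 3.92 and 0.464 to 1.02 CPM over the 9 listed). They also fell for 3 of 6 in fibroblasts (801 to 878 and 393 to 555 CPM) and 1 of 6 in endothelial cells (97.8 to 99.2 and 86.3 to 90.7 CPM). For dendritic cells 2 of 7 rose and 1 fell (98.6 to 105 and 106 to 115 CPM). The part of these cells in the changes of the 10 genes was not tested.

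The genes whose pattern was most like that of Cat, by Pearson's r of log2 CPM over 12 samples after each table's control mean was subtracted, were Pdia4 (r = 0.989), Stip1 (r = 0.981) and Hspd1 (r = 0.976) of 16802 genes compared. Pdia4 fell in AMPK-KO by 0.70 on the log2 scale (adjusted p = 3.3e-06). For Prdx6 they were the Y-linked Eif2s3y (r = 0.991), Kdm5d (r = 0.983) and Uty (r = 0.983), which had no count in the late-stage samples. These r describe a grouping that the samples share and carry no test.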

How the data were processed

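Bulk RNA-seq of sorted TAMs was used as deposited: raw counts per gene, which the authors obtained with HISAT2 and featureCounts after read filtering, in 2 tables of 6 samples each. The submitters' processing notes name FastQC, HISAT2, featureCounts and DESeq2 without versions, and the builds mm10 and GRCm38, whereas the methods write GRCh38 for the mouse genome. The handling of strand and of multiply mapped reads is not given in the sources used here. Of the 55401 gene identifiers, 54349 match GENCODE M21 (GRCm38) with their version, those of all 10 members included, and positions and exon lengths were taken from it. No sample column was left unused.

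Each table was filtered with filterByExpr, scaled by TMM and tested with edgeR 4.0.16 (glmQLFit, glmQLFTest, no covariates) in R 4.3.3, with Benjamini-Hochberg adjustment over all genes tested. The difference of the knockout and stage effects was tested as a contrast in 1 fit of 4 groups over the 12 samples. The threshold was an adjusted p of 0.05, and an absolute log2 fold change above 1 for differential expression. Most-alike genes were found from log2 CPM with a prior count of 2. The 3 motifs were searched on both strands of RefSeq promoter windows of 300 bases, which were at hand for 9 of the 10 members, all but Prdx6. The fits were tested on simulated data.

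The members, the gene lists and the tests were chosen with earlier results of these data known. Named are all members, the other glutathione peroxidases, from each pathway list the called gene with the smallest adjusted p in each direction and comparison, and for the member with the smallest adjusted p in each comparison the 3 genes with the highest r. Markers are given as lists (macrophages, erythroid, B16 melanoma, T, NK, B, neutrophil, dendritic, fibroblast and endothelial cells). Prkaa1, Lyz2 and the pseudogene were added as checks. The alternatives were RLE and upper-quartile factors, library size alone, all genes with at least 1 count, a minimum of 10 counts in each library, DESeq2 1.42.0, the replicate number as a block, each library left out in turn and, chosen after seeing the data, Gpx4 summed with Gpx4-ps2. Plots were drawn with matplotlib 3.10.9. Some listed items are not reported here.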

Additional observations from a re-analysis of the deposited data

How the results depend on the processing

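Of 480 values of the 10 genes under alternative settings, 440 kept their direction and their side of the threshold, 13 lost a call, 18 gained one and 9 changed sign. The number of members called in AMPK-KO against WT was 6 in the original test, 6 under each other scaling, filter or tool and 5 to 7 with 1 library left out. Prdx1, Cat, Gpx3, Gpx4 and Prdx5 were called under all of these. With stage it was 4, with 3 under no filter, 5 by DESeq2, and 2 to 4 with 1 library left out, where 2 remained called (Prdx1 and Prdx6) without early-stage replicate 2, late-stage replicate 2 or late-stage replicate 3. The cause was not tested, and these fits had fewer samples. The number of members whose effects differed was 4, with 8 by DESeq2, 6 under library size alone or at least 10 counts in every library, and 4 to 6 with 1 library left out. Gpx3, Prdx6, Cat and Prdx4 were called in each. The genes called in all moved as well. DESeq2 called 4111, 2411 and 3079 genes in the knockout, stage and difference tests, against 3693, 1619 and 2406 in the original tests. For the difference, 2464 genes were called under library size alone and 2548 with at least 10 counts in every library.

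The sign changes were in values that were not called. Gpx1 in AMPK-KO ranged from −0.093 to 0.074 with 1 library left out, and with stage Gpx4 ranged from −0.11 to 0.12 (0.011 under library size alone), Prdx2 from −0.0036 to 0.19 and Prdx5 from −0.25 to 0.10.

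Whether replicate numbers pair the samples could not be settled with 3 samples per group. The deviations of same-numbered samples had r of −0.0039 to 0.0423, and not every sample correlated best with its own number. With the replicate block, 6, 3 and 4 members were called in the knockout, stage and difference tests, Prdx4 with stage at an adjusted p of 0.0572, and over all genes 3862 against 3693 (knockout) and 1417 against 1619 (stage). The number of all genes called also changed by more than 1.5 times between the stage fit and no filter (936) and single libraries left out (653 to 2835), and in the knockout fit it was 2414 without WT replicate 3 and 2419 without AMPK-KO replicate 2. What depth limits was not tested. The spread of Prdx5, Gpx4 and Prdx2 among early-stage samples, with SDs of 68.7, 24.6 and 21.5 CPM, limits how small a stage change of these genes could be seen.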

Other observations

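Further called genes of the thioredoxin and glutathione lists are named here after their values were seen. Txnrd1, the cytosolic thioredoxin reductase that keeps thioredoxin reduced for the peroxiredoxins, fell from 231 ± 9.17 CPM in WT to 155 ± 3.72 CPM in AMPK-KO (log2 fold change −0.57, SE 0.05, adjusted p = 2.3e-05) and from 234 ± 4.54 CPM in early-stage to 197 ± 6.59 CPM in late-stage samples (log2 fold change −0.25, SE 0.07, adjusted p = 0.0418). Gsr, which reduces oxidized glutathione, fell in both comparisons (log2 fold change −0.28, adjusted p = 0.0105, and −0.37, adjusted p = 0.0211). Gclc and Gss, which catalyze the steps of glutathione synthesis, both fell in AMPK-KO (log2 fold change −0.70, adjusted p = 3.7e-05, and −0.70, adjusted p = 0.0020). In contrast, Slc7a11, the cystine importer, rose in AMPK-KO from 17.8 ± 2.12 to 25.5 ± 2.08 CPM (log2 fold change 0.52, SE 0.10, adjusted p = 0.0056). The difference of its knockout and stage effects is not reported here.

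Nfe2l2, which encodes NRF2, was at 159 ± 1.10 CPM in WT and 170 ± 3.99 CPM in AMPK-KO (log2 fold change 0.09, adjusted p = 0.209), and its inhibitor Keap1 was at 98.8 ± 3.41 and 97.8 ± 2.29 CPM (log2 fold change −0.01, adjusted p = 0.885).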
